A study of Mus musculus with 15 samples.

Results

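Wnt ligands, their Frizzled and Lrp receptors, the 2 proteins that mature and release the ligands, and the secreted antagonists of the pathway were examined in mouse tumors with and without the caspase gene Casp2. The set was taken by symbol, and it comprised every counted gene named Wnt, Fzd, Sfrp or Dkk with a number, together with Lrp5, Lrp6, Wif1, Porcn and Wls. It held 42 of the 23329 genes counted, with 19 ligands, 10 Frizzled receptors, 2 co-receptors, 2 genes of ligand maturation and release and 9 secreted antagonists. RNA sequencing had been done on 15 primary tumors from 15 mice. The lymphomas, taken from cervical lymph nodes, came from 4 EμMyc and 3 EμMyc/Casp2-/- mice. The neuroblastomas were paraspinal tumors of the thorax, from 4 mice with Th-MYCN alone and 4 that also lacked Casp2 (Th-MYCN/Casp2-/-). In EμMyc mice, on C57BL/6, c-Myc is expressed in the B lineage from the heavy chain enhancer, and in Th-MYCN mice, on a mixed Sv129/C57BL6 background, MYCN is expressed in the sympathetic lineage from the promoter of tyrosine hydroxylase. Every group therefore carried a Myc family transgene, and no normal tissue was included. The neuroblastomas had been chosen for absent or reduced vascularization. Onset in weeks was 13 to 19 for EμMyc, 8 to 12 for EμMyc/Casp2-/-, 10 to 21 for Th-MYCN and 15 to 24 for Th-MYCN/Casp2-/- mice. In the lymphomas, genotype and age therefore cannot be told apart.

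Wnt proteins are lipid-modified secreted signals. The acyltransferase Porcn attaches the lipid, the carrier Wls takes the ligand to the cell surface, and the ligand binds a seven-pass Frizzled receptor on the receiving cell. With Lrp5 or Lrp6 as co-receptor, canonical signaling stabilizes β-catenin, which acts with Tcf/Lef factors on transcription, whereas ligands such as Wnt5a act largely through the receptors Ror1, Ror2 and Ryk and through planar polarity proteins. The secreted frizzled-related proteins (Sfrp) and Wif1 bind ligands outside the cell, and the Dickkopf proteins Dkk1, Dkk2 and Dkk4 bind Lrp5 and Lrp6, whereas Dkk3 is a divergent member of that family. In the sympathetic lineage the pathway is known for its part in neural crest induction and migration, and in lymphoid organs it is known chiefly for roles in immature T and B cells.

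The libraries held 4940464 to 17638029 reads on genes in the second-strand counts used here, and 9845761 to 35192127 with both strands together. In the second-strand counts 3 reads, taken as the smallest detectable value, corresponded to 0.170 to 0.607 CPM (reads scaled to a common library size). This limit covers counting error only. Of the 42 members, 20 to 31 had at least 3 reads in a given tumor. Casp2 itself had 125 to 203 CPM in EμMyc, 51.9 to 76.1 in EμMyc/Casp2-/-, 76.0 to 125.5 in Th-MYCN and 39.6 to 80.2 in Th-MYCN/Casp2-/- tumors, counted over the whole gene, so reads on it were fewer but not absent in both Casp2-/- groups and the neuroblastoma ranges overlapped. B cell markers summed to 1922 to 4891 CPM in the lymphomas and at most 25.9 in the neuroblastomas, and sympathetic neuroblast markers to 2749 to 3976 CPM in the neuroblastomas and at most 24.6 in the lymphomas, as the tissue labels say. Tumor EuMycC2ko215 stood apart, since its 8 T cell markers summed to 933 CPM against 58.5 to 213.9 in the other lymphomas, and it also had the lowest depth and came from the only female among the lymphoma mice. In whole tumors, fewer cells of a type and less RNA per cell cannot be told apart.

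For 4 of the members whose promoters were given in the reference, picked by hand and not by a rule, the 250 bases before the RefSeq start are shown 5′ to 3′ on the strand of the gene. They come from RefSeq on GRCm38.p6, where Fzd1 lies at chr5:4758217-4758466, Sfrp5 at chr19:42202253-42202502, both on the minus strand, and Sfrp2 at chr3:83766071-83766320 and Wnt3 at chr11:103773925-103774174, both on the plus strand. Capitals mark CTTTG, the short core of Tcf/Lef binding sequences, or its reverse complement CAAAG.
Fzd1: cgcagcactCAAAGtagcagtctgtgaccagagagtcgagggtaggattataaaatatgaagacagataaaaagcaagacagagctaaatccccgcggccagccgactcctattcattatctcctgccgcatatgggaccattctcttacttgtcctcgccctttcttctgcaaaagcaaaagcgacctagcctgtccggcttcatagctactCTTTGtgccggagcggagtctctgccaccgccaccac
Sfrp5: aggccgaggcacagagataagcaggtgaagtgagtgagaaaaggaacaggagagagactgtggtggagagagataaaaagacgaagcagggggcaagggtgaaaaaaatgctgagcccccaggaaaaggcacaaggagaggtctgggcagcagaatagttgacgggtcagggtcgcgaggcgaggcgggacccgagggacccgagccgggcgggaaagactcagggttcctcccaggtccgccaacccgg
Sfrp2: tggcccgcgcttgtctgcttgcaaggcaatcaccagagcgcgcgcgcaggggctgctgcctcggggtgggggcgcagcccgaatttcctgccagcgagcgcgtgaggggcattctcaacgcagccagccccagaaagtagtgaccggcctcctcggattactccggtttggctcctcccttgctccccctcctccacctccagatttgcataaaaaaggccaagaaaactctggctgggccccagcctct
Wnt3: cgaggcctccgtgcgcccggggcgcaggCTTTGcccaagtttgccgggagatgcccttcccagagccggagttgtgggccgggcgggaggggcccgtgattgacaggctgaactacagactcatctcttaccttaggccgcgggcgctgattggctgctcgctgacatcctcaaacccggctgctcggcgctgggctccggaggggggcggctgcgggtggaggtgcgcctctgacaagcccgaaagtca
The Fzd1 window held this core 2 times, the Wnt3 window 1 time and the windows of Sfrp5 and Sfrp2 0 times, and 48.6% of all 32851 promoter windows of that length held it on either strand. The longer forms CTTTGAA and CTTTGAT, which overlap it, were in 4.46% and 3.21% of all windows, and the E-box CACGTG, the sequence that Myc family proteins bind, was in 6.02%. None of these longer motifs lay in the windows shown. RefSeq windows matched 27 of the 42 members, with 30 windows in all, of which 14 held CTTTG, 1 held CTTTGAA (Dkk1), 2 held CTTTGAT (Wnt11 and Wnt5b) and 3 held CACGTG (Fzd9, Wif1 and Wnt9a). A match of letters is a description of the sequence and not of binding.

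Most Wnt ligands were at the limit of detection in both kinds of tumor. A gene entered the tests if it had more than 1 CPM in at least 3 tumors, which 14880 genes did, and 23 of the 42 members were among them. These were 4 of the 19 ligands (Wnt2b, Wnt3, Wnt5a and Wnt6), Porcn and Wls, 9 of the 10 Frizzled genes, Lrp5 and Lrp6, and 6 of the 9 antagonists. Fzd10, Dkk1, Dkk4 and Wif1 and the other 15 ligands were not tested. Wnt3a had no read in any tumor, and Wnt8a, Dkk4, Wnt1, Wnt7a and Wnt8b had 1, 2, 5, 8 and 8 reads over all 15 tumors.

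**Figure D1:**
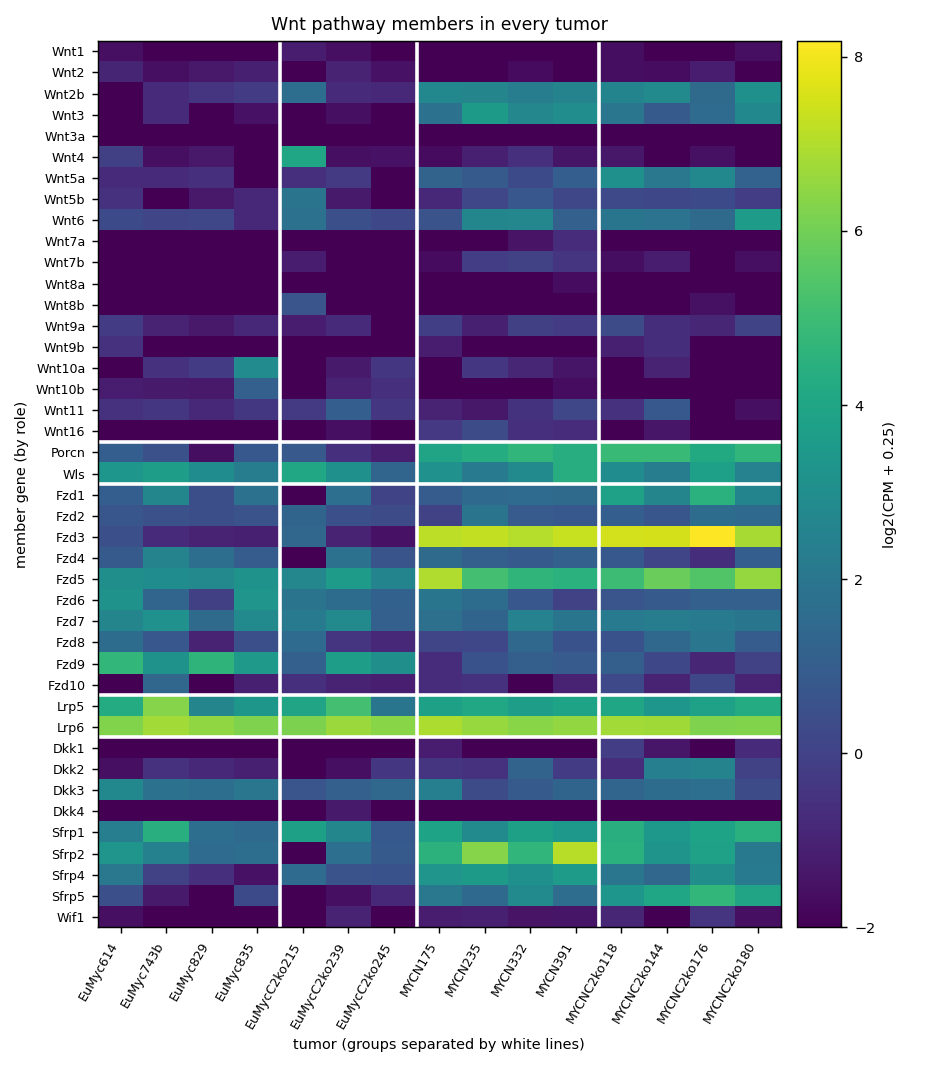
Level of each of the 42 members (rows, by role from ligands at the top to antagonists at the bottom) in each of the 15 tumors (columns, groups separated by white lines), as color on the scale log2(CPM + 0.25). Fzd3 and Fzd5 are bright in the 8 neuroblastomas, Fzd9 is brighter in the 7 lymphomas, Lrp6 is alike throughout, and most ligand rows are dark.

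Among the ligands not tested, several owed most of their reads to 1 lymphoma, and they are named here after their values were seen. Wnt4, a ligand of epithelial and urogenital development, had 80 of its 109 reads in EuMycC2ko215, where it reached 15.6 CPM against at most 0.70 in the other tumors. The same tumor held 7 of the 8 reads of Wnt8b. Wnt5b, by contrast, had 101 of its 131 reads in the neuroblastomas, and EuMycC2ko215 held 18 of the 20 found in the EμMyc/Casp2-/- group. Wnt10a had 69 of its 107 reads and Wnt10b 18 of its 32 in EuMyc835. Wnt16 had 9, 14, 7 and 6 reads in the Th-MYCN tumors and 0, 2, 0 and 0 in the Th-MYCN/Casp2-/- tumors, below the level needed for the main test. Wnt10a and Wnt6 are neighbors 6.2 kb apart on chromosome 1, Wnt3 and Wnt9b lie 24.3 kb apart on chromosome 11, and the members of each pair had unequal totals, with 107 and 599 reads for the first pair and 640 and 17 for the second.

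The 4 ligands tested, together with Fzd3, Dkk2 and Sfrp5, passed the filter only with neuroblastomas, since at most 2 lymphomas had more than 1 CPM of any of these 7 members. The other 16 members tested passed in either tumor type. For the 7 a lower level in lymphomas was therefore largely set by the filter, and their values between tumor types are given as a description. Wnt3, a canonical ligand, had 3.36, 11.4, 6.35 and 7.78 CPM in the Th-MYCN tumors and 3.75, 1.61, 2.70 and 6.58 in the Th-MYCN/Casp2-/- tumors. In the lymphomas it had 0, 4, 0 and 1 reads in EμMyc and 0, 1 and 0 in EμMyc/Casp2-/- tumors, so that no lymphoma reached the lowest neuroblastoma. Wnt2b, another ligand of the canonical pathway, had 6.41, 6.03, 4.73 and 5.56 CPM in Th-MYCN and 5.76, 6.81, 2.60 and 8.29 in Th-MYCN/Casp2-/- tumors. Its EμMyc values were 0, 0.342, 0.472 and 0.637 CPM, and of the EμMyc/Casp2-/- tumors only EuMycC2ko215, at 2.93, overlapped the neuroblastomas, the other two having 0.334 and 0.303. Wnt6 ranged from 1.28 to 12.2 CPM in the neuroblastomas and from 0.319 to 3.32 in the lymphomas, with its highest lymphoma value again in EuMycC2ko215. Wnt5a had at most 0.584 CPM in the lymphomas and 0.981 to 8.50 in the neuroblastomas.

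Of the 2 genes that act before the ligand leaves the cell, Porcn separated the tumor types and Wls did not. Porcn had 15.2, 19.5, 26.1 and 20.1 CPM in Th-MYCN and 29.3, 29.6, 17.8 and 25.6 in Th-MYCN/Casp2-/- tumors. The lymphomas lay far lower, at 1.84, 1.20, 0.0787 and 1.49 in EμMyc and 1.56, 0.417 and 0.202 in EμMyc/Casp2-/- tumors. Wls spanned 2.22 to 16.6 CPM in the lymphomas and 4.29 to 20.1 in the neuroblastomas.

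The Frizzled receptors differed widely in level and in the tumors that held them. Fzd3, a receptor known for axon guidance and planar polarity in neurons, had 143.4, 152.2, 131.9 and 161.6 CPM in Th-MYCN and 179.6, 183.6, 290.8 and 116.0 in Th-MYCN/Casp2-/- tumors. In EμMyc tumors it had 1.14, 0.342, 0.236 and 0.212 CPM, and in EμMyc/Casp2-/- tumors 2.34, 0.25 and 0.101. The lowest neuroblastoma thus lay far above the highest lymphoma. Fzd5 had 126.3, 34.6, 24.9 and 22.2 CPM in Th-MYCN and 31.3, 58.1, 42.7 and 95.5 in Th-MYCN/Casp2-/- tumors, against 8.14, 7.53, 6.69 and 8.81 in EμMyc and 6.25, 12.3 and 5.86 in EμMyc/Casp2-/- tumors. Fzd9 ran the other way, with 26.4, 9.07, 24.1 and 11.2 CPM in EμMyc and 1.95, 12.5 and 8.18 in EμMyc/Casp2-/- tumors, and with 0.289 to 1.87 in all 8 neuroblastomas. Its lowest lymphoma value, in EuMycC2ko215, lay just above the highest neuroblastoma value.

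Divided by exon length and set against the sum of all 10 Frizzled genes in the same tumor, Fzd3 made up 33.4 to 66.0% of Frizzled CPM per kb in the neuroblastomas and at most 3.83% in the lymphomas. Fzd5 made up 16.5 to 56.5% in the neuroblastomas and 6.71 to 18.9% in the lymphomas, and it exceeded Fzd3 in MYCN175 (56.5 against 34.6%) and MYCNC2ko180 (51.0 against 33.4%). Fzd9 made up 35.8 to 79.2% in EμMyc and 17.8 to 59.1% in EμMyc/Casp2-/- tumors. In EuMycC2ko215, whose shares rest on the 121 Frizzled reads of that library, Fzd7 at 19.8% and Fzd5 at 18.9% were as large as Fzd9 at 17.8%. Fzd10 was at or below 2.51% in every tumor but EuMyc743b, where 27 reads gave 6.43%. The summed level was 4.78 to 17.5 CPM per kb in the lymphomas and 18.0 to 37.5 in the neuroblastomas.

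**Figure D2:**
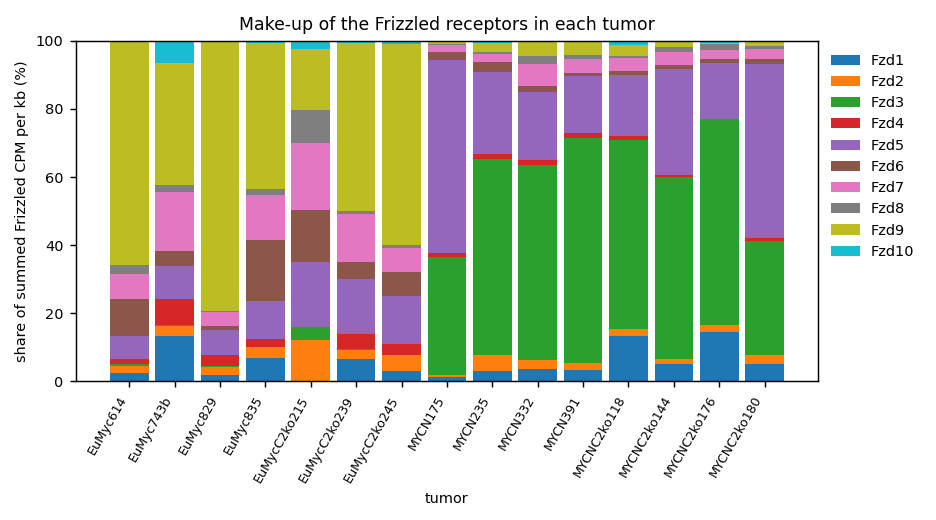
Share of each of the 10 Frizzled genes (stacked colors) in the summed Frizzled level of each tumor, in percent of CPM per kb of exon, 1 bar per tumor. Fzd3 and Fzd5 together fill most of the 8 neuroblastoma bars and Fzd9 is the widest color in 6 of the 7 lymphoma bars, EuMycC2ko215 being the exception.

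The co-receptors were read in every tumor. Lrp6 was the most even member, at 75.2, 109.8, 89.1 and 73.2 CPM in EμMyc, 71.9, 99.5 and 83.9 in EμMyc/Casp2-/-, 121.5, 98.8, 82.2 and 93.7 in Th-MYCN and 110.0, 104.9, 74.7 and 75.9 in Th-MYCN/Casp2-/- tumors. Lrp5 was even in the neuroblastomas, at 10.0 to 18.9 CPM, and uneven in the lymphomas, where EuMyc743b had 80.8 and EuMycC2ko245 had 3.63.

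Among the antagonists, Sfrp2 had 23.0, 80.4, 25.6 and 137.6 CPM in Th-MYCN and 22.5, 9.38, 13.9 and 4.14 in Th-MYCN/Casp2-/- tumors. It had 9.80, 5.30, 2.68 and 2.97 CPM in EμMyc and 0, 3.09 and 1.62 in EμMyc/Casp2-/- tumors, the 0 being EuMycC2ko215. Sfrp1 was found in all tumors, at 1.51 to 20.9 CPM in the lymphomas and 6.90 to 21.6 in the neuroblastomas. Dkk3 lay between 1.02 and 6.56 CPM throughout. Dkk1 had 18 reads in all, none of them in a lymphoma, and Wif1 had 24.

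The comparison of Th-MYCN/Casp2-/- with Th-MYCN tumors asked which transcripts differ where Casp2 is absent and neuroblastoma arises later. Fzd1, Sfrp5 and Wnt5a were higher on average in Th-MYCN/Casp2-/- tumors and Sfrp2 was lower, and whether they were DEGs depended on the tumors fitted, the test and the covariate. Fzd1, a receptor of the canonical and other branches, had 1.71, 2.54, 2.71 and 2.59 CPM in Th-MYCN and 14.0, 5.91, 22.7 and 5.85 in Th-MYCN/Casp2-/- tumors. The groups did not overlap, and MYCNC2ko118 and MYCNC2ko176 were the highest. Sfrp5 had 3.97, 2.54, 7.16 and 2.84 CPM in Th-MYCN and 10.1, 15.8, 26.9 and 15.3 in Th-MYCN/Casp2-/- tumors, again without overlap. Wnt5a had 2.14, 1.60, 0.981 and 1.79 CPM in Th-MYCN and 8.50, 3.92, 6.46 and 2.03 in Th-MYCN/Casp2-/- tumors, where MYCNC2ko180 lay below the highest Th-MYCN value. For Sfrp2 the highest Th-MYCN/Casp2-/- value, 22.5 CPM, lay just under the lowest Th-MYCN value, 23.0.

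**Figure D3:**
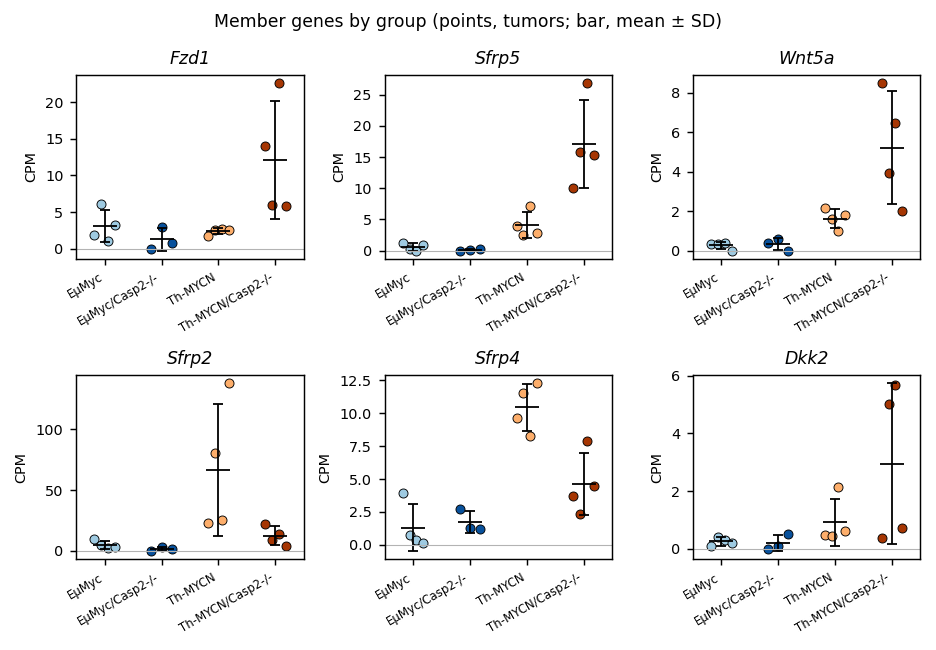
CPM of Fzd1, Sfrp5, Wnt5a, Sfrp2, Sfrp4 and Dkk2 (1 panel each, linear axis) in the 4 groups, 1 point per tumor, with a bar at the mean and an error bar of 1 SD. In the neuroblastomas the groups do not overlap for Fzd1, Sfrp5, Sfrp2 and Sfrp4 and overlap for Wnt5a and Dkk2.

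In the model of all 15 tumors, where DEGs were genes with a more than 2-fold change and an FDR under 0.05 in the likelihood ratio test of edgeR (LRT, Benjamini-Hochberg), 0 of the 23 members tested were DEGs, and 0 were by the quasi-likelihood test (QLF), with 4 at an unadjusted p under 0.05 by either test. Of all 14880 genes, 0.813% were DEGs by LRT and 0.0336% by QLF, and 7.78% had an unadjusted p under 0.05 by LRT and 6.77% by QLF. The log2-fold change of Fzd1 was 2.34 (SE 0.69, LRT FDR 0.0911, QLF FDR 0.412), that of Sfrp5 was 2.04 (SE 0.64, LRT FDR 0.122, QLF FDR 0.466) and that of Wnt5a was 1.68 (SE 0.58, LRT FDR 0.206, QLF FDR 0.639). Sfrp2 had -2.42 (SE 0.71, LRT FDR 0.0911, QLF FDR 0.348), and it passed as a DEG when MYCN175 (LRT FDR 0.0338) or MYCN332 (LRT FDR 0.0492) was left out.

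When the 8 neuroblastomas were fitted alone, the log2-fold changes stayed close to these and the SEs fell, and Fzd1 (2.36, SE 0.50, LRT FDR 0.00134), Sfrp5 (2.05, SE 0.44, LRT FDR 0.0013), Wnt5a (1.69, SE 0.51, LRT FDR 0.0465) and Sfrp2 (-2.40, SE 0.61, LRT FDR 0.0137) were DEGs, 4 of 23 members. In that fit 1.98% of 13962 genes were DEGs by LRT and 0.0358% by QLF, and the QLF FDR of these 4 genes was 0.117 to 0.192, so that none was a DEG by QLF. DESeq2 on the 8 tumors gave an FDR of 0.000208 for Fzd1, 0.000163 for Sfrp5, 0.039 for Wnt5a and 0.0419 for Sfrp2. Over all genes it gave 284 DEGs among 13962. The biological coefficient of variation of Fzd1 was 0.665 in the model of 15 tumors and 0.473 in that of 8, and that of Sfrp5 was 0.616 and 0.417. With each neuroblastoma left out of the 8 in turn, Fzd1 and Sfrp5 were DEGs in 8 of 8 LRT fits, Sfrp2 in 4 and Wnt5a in 2. Over all genes, the DEGs in these fits ranged from 104 of 13831 without MYCN235 to 422 of 13839 without MYCN175. Sfrp2 was lost without MYCN235, MYCN391, MYCNC2ko144 or MYCNC2ko180 (LRT FDR 0.0775, 0.139, 0.0947 and 0.0508), and Wnt5a remained a DEG without MYCN175 (LRT FDR 0.0401) or MYCNC2ko180 (LRT FDR 0.00255). Without MYCNC2ko176, Sfrp4 was also a DEG that was lower. Females numbered 2 among the 4 Th-MYCN mice and 3 among the 4 that lacked Casp2. With sex in the model of 8 tumors, Fzd1 (LRT FDR 0.0177) and Sfrp5 (LRT FDR 0.00125) remained DEGs, while Sfrp2 (0.39) and Wnt5a (0.274) did not. Over all genes that model gave 185 DEGs among 13962.

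Groups did not overlap for 4 of the 23 members, 2 higher and 2 lower, against 6.62% of all genes tested. The fourth was Sfrp4, with 9.65, 11.6, 8.31 and 12.3 CPM in Th-MYCN and 3.75, 2.31, 7.91 and 4.47 in Th-MYCN/Casp2-/- tumors (log2-fold change -1.18, SE 0.68, LRT FDR 0.785, QLF FDR 0.853). Dkk2, an antagonist that binds Lrp5 and Lrp6, was split within the Th-MYCN/Casp2-/- group. It had 5.01 and 5.69 CPM in MYCNC2ko144 and MYCNC2ko176 but 0.360 and 0.731 in MYCNC2ko118 and MYCNC2ko180, against 0.489, 0.436, 2.13 and 0.618 in Th-MYCN tumors (log2-fold change 1.66, SE 0.87, LRT FDR 0.687, QLF FDR 0.808).

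Besides Sfrp2, the members with the highest CPM per kb in the neuroblastomas were Fzd3, Fzd5, Lrp6 and Porcn, and they differed less between genotypes. Fzd3 had a log2-fold change of 0.39 (95% interval -0.50 to 1.27), Fzd5 of 0.13 (-0.86 to 1.12), Lrp6 of -0.12 (-0.53 to 0.30) and Porcn of 0.34 (-0.62 to 1.30), each with an LRT FDR of 1. Only for Lrp6 did the interval leave out a 2-fold change in both directions. The median log2-fold change of the 23 members was 0.13, against -0.002 over all genes tested.

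**Figure D4:**
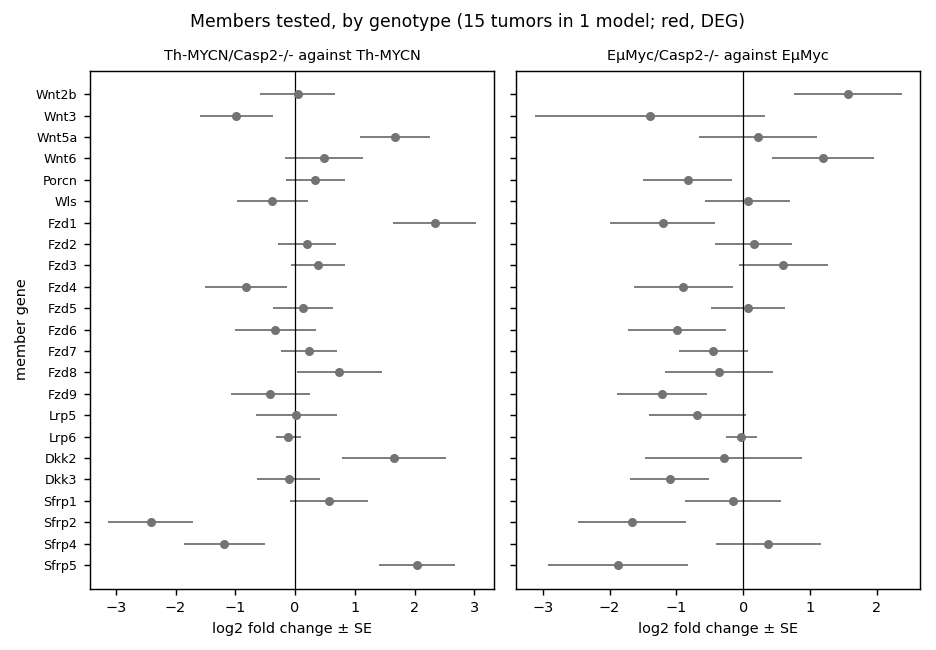
Log2-fold change (points) and its SE (bars) of the 23 members tested, for Th-MYCN/Casp2-/- against Th-MYCN tumors on the left and EμMyc/Casp2-/- against EμMyc tumors on the right, from the model of 15 tumors. No point is red, since 0 members were DEGs in either comparison, and Fzd1, Sfrp5, Wnt5a and Sfrp2 lie farthest from 0 relative to their SE on the left.

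Marker genes of other cells were also compared between the neuroblastoma groups, and only the endothelial list held DEGs. The 8 Schwann cell and glia markers summed to 43.4 to 94.1 CPM in Th-MYCN and 77.9 to 165.6 in Th-MYCN/Casp2-/- tumors, and 7 of the 7 tested lay above 0 with none a DEG. In the order of tumors in which Fzd1 and Sfrp5 are given above, the sums were 43.4, 45.1, 94.1 and 49.8 CPM in Th-MYCN tumors. They were 77.9, 86.4, 165.6 and 127.5 CPM in Th-MYCN/Casp2-/- tumors. The 8 endothelial markers summed to 70.5 to 115.3 CPM in Th-MYCN and 38.1 to 59.8 in Th-MYCN/Casp2-/- tumors. Of these 8, 0 lay above 0, with a median log2-fold change of -0.96, and 2 were lower as DEGs. The 10 fibroblast and mesenchymal markers summed to 378 to 633 CPM and 321 to 722 CPM, with a median log2-fold change of 0.01. No list had a marker without reads in either group except the T cell list (Trat1 in Th-MYCN/Casp2-/- tumors). The part of these cells in the values of Fzd1, Sfrp5, Wnt5a and Sfrp2 was not tested.

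The comparison of EμMyc/Casp2-/- with EμMyc tumors asked the same of lymphomas, which arise earlier without Casp2. Of the 23 members, 0 were DEGs by LRT or QLF, where 1.44% of all genes were by LRT and 0.141% by QLF. An unadjusted LRT p under 0.05 was reached by 1 member, Sfrp2, where 9.89% of all genes reached it, and by 0 members with QLF, where 8.53% did. The log2-fold change of Sfrp2 was -1.66 (SE 0.80, LRT FDR 0.485, QLF FDR 0.646), and the groups overlapped. Dkk3 was the 1 member whose groups did not overlap, against 3.7% of all genes, and it is named after its values were seen. It had 6.56, 3.34, 2.99 and 3.72 CPM in EμMyc and 1.37, 1.92 and 2.42 in EμMyc/Casp2-/- tumors (log2-fold change -1.10, SE 0.59, LRT FDR 0.55, QLF FDR 0.63). Fzd9, the leading lymphoma Frizzled, had -1.21 (95% interval -2.53 to 0.11), an interval that holds a fall of more than 2-fold as well as no change. Fzd1 and Sfrp5, which were higher in Th-MYCN/Casp2-/- tumors, had -1.20 (95% interval -2.74 to 0.33) and -1.88 (-3.93 to 0.18) here. Sfrp5 rested on 24 reads in the EμMyc and 4 in the EμMyc/Casp2-/- tumors, and Fzd1 had 0 reads in EuMycC2ko215. The median over members was -0.36, against -0.03 over all genes. With each of the 7 lymphomas left out in turn the number of member DEGs stayed at 0.

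Whether the difference between genotypes itself differed between tumor types was tested as an interaction, which uses the same tumors as both comparisons above. Of the 23 members 0 passed by LRT or QLF, against 0.914% and 0.0538% of all genes, and 2 had an unadjusted p under 0.05 by either test, where 8.96% of all genes did by LRT and 7.57% by QLF. The interaction of Sfrp5 was -3.92 (SE 1.23, LRT FDR 0.0747, QLF FDR 0.443) and that of Fzd1 -3.54 (SE 1.04, LRT FDR 0.0808, QLF FDR 0.432), the negative sign meaning a lower log2-fold change in the lymphomas. Sfrp5 passed by LRT without EuMyc743b (LRT FDR 0.0356), EuMyc829 (0.0112), EuMycC2ko245 (0.0292) or MYCN332 (0.0488), and Fzd1 passed without EuMyc829 (0.0443) or EuMycC2ko239 (0.00393). Sfrp5 had passed the filter only with neuroblastomas and had 4 reads in the EμMyc/Casp2-/- tumors. Fzd1 had 44 reads there, 36 of them in EuMycC2ko239. With so few lymphoma reads, these passing fits are a description and no support for an interaction. Sfrp4 passed with the opposite sign, 3.11, without EuMyc614 (LRT FDR 0.0321).

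The tumor types differed in far more members than the genotypes did, as they did over all genes. Tissue site, transgene and mouse background change together with tumor type and cannot be told apart from it. All 4 EμMyc mice were male, against 2 of the 4 Th-MYCN mice. In EμMyc against Th-MYCN tumors 1 member was a DEG that was higher (Fzd9) and 10 were lower, by LRT and by QLF. Over all genes 18.9% were higher and 28.5% lower by LRT, and 18.3% and 27.8% by QLF. Of the 10 lower members, 6 (the 4 ligands, Fzd3 and Sfrp5) were among the 7 that had passed the filter only with neuroblastomas, so the count of lower members is no support for a direction. For these 6 the filter had largely set the direction, so their log2-fold changes are given as a description only, without an FDR. They were -5.90 for Wnt3 (SE 0.88), -3.95 for Wnt2b (SE 0.72), -2.50 for Wnt5a, -2.34 for Wnt6, -8.22 for Fzd3 (SE 0.55) and -2.87 for Sfrp5. Among the members that passed in either tumor type, Porcn had -4.14 (SE 0.53, LRT FDR 4.01e-12, QLF FDR 3.51e-05). The receptor Fzd5 had -2.74 (SE 0.51, LRT FDR 1.41e-06, QLF FDR 0.000388). The antagonists Sfrp2 and Sfrp4 had -3.68 and -2.99 (LRT FDR 9.63e-06 and 0.00015). Fzd9 had 3.78 (SE 0.64, LRT FDR 2.35e-07, QLF FDR 0.000205). Leaving out single tumors added Fzd6 to the higher members without EuMyc743b, Fzd6 and Fzd7 without EuMyc829, and Fzd6 and Dkk3 without MYCN175, and it added Sfrp1 to the lower members without EuMyc743b.

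In EμMyc/Casp2-/- against Th-MYCN/Casp2-/- tumors, which are other mice than those of the preceding comparison, again 1 member was higher (Fzd9) and 10 were lower by LRT and by QLF. Over all genes 20.5% were higher and 27.6% lower by LRT, and 19.7% and 26.6% by QLF. The lower members, 6 of them again among those 7, were Fzd1, Fzd3, Fzd5, Wnt2b, Wnt3, Wnt5a, Porcn, Sfrp2, Sfrp5 and Dkk2. Among the members that passed in either tumor type, Porcn had -5.31 (SE 0.64), Fzd1 -3.17 (SE 0.78) and Fzd9 2.98 (SE 0.70). Their LRT FDRs were 9.51e-13, 0.000481 and 8.17e-05, and their QLF FDRs 3.01e-05, 0.00642 and 0.00188. As a description only, Fzd3 had -8.01 (SE 0.59), Sfrp5 -6.79 (SE 1.01), Wnt5a -3.96 (SE 0.79) and Dkk2 -3.73 (SE 1.11). Wnt3, also given as a description only, had 1 read in the 3 lymphomas and 186 in the 4 neuroblastomas, a ratio of 96.4 per unit of depth. Its 95% counting interval of 17.1 to 3826 pools the reads of each group. It leaves out the spread between tumors and is no test of the direction, which the filter had largely set. Fzd1 had an LRT FDR of 0.661 between the EμMyc and Th-MYCN groups (log2-fold change 0.37), and the change in its difference between tumor types with genotype is the interaction given above. Without EuMycC2ko215 the lower members numbered 13, with Fzd8, Sfrp1 and Wnt6 added.

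**Figure D5:**
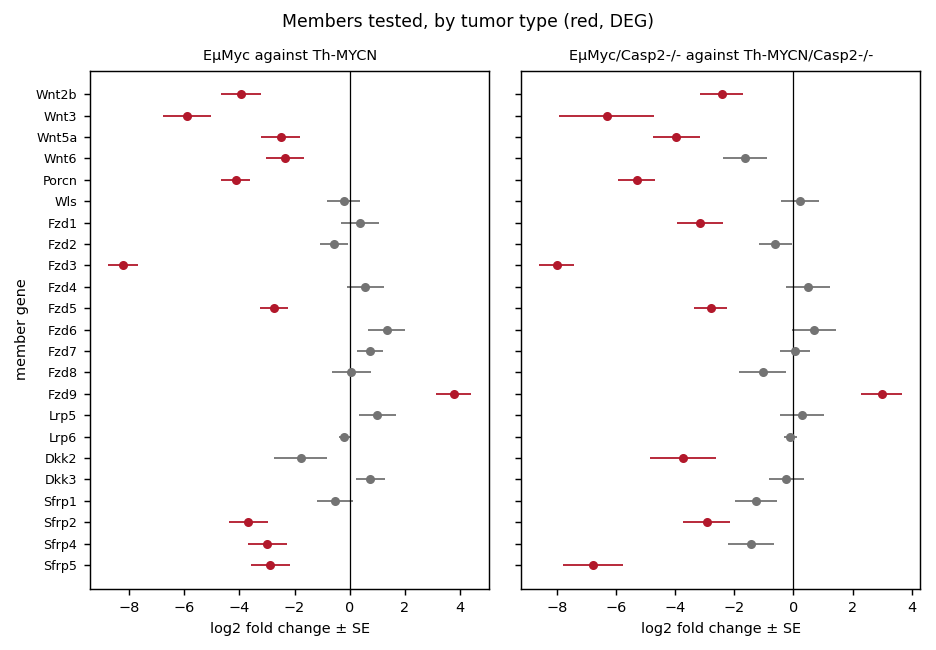
Log2-fold change (points) and its SE (bars) of the 23 members tested, for EμMyc against Th-MYCN tumors on the left and for EμMyc/Casp2-/- against Th-MYCN/Casp2-/- tumors on the right, DEGs in red. Fzd3 lies near -8 in both panels and Fzd9 is the 1 red point on the right of 0 in each, and the value of Wnt3 in the right panel rests on 1 read in the lymphomas. Red points left of 0 include Fzd3, Wnt2b, Wnt3, Wnt5a and Sfrp5, with Wnt6 on the left and Dkk2 on the right. For these members the filter had largely set the direction.

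Lrp6 had -0.19 (95% interval -0.60 to 0.22) and -0.10 (-0.55 to 0.35) in the 2 comparisons of tumor types, intervals that leave out a 2-fold difference. Wls had -0.22 (-1.37 to 0.94) and 0.23 (-1.03 to 1.48), and Lrp5 had 1.00 (-0.33 to 2.33) and 0.29 (-1.14 to 1.73), so that larger differences than 2-fold are within their intervals. The median log2-fold change of the 23 members was -0.57 between the groups with Casp2 and -1.43 between those without it, against -0.04 and -0.05 over all genes, and the 7 members that passed only with neuroblastomas are part of both medians.

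Of the rest of the pathway, 5 lists with 51 genes tested were examined. In EμMyc against Th-MYCN tumors 28 of the 51 were lower and 4 higher by LRT, and 31 were DEGs by QLF, beside the 28.5% lower and 18.9% higher over all genes. The genes of these lists went through the same filter, and which tumor type took each one over it was not counted. Among the non-canonical receptors and planar polarity proteins, 11 of 13 tested were lower and 1 was higher in EμMyc than in Th-MYCN tumors, with the receptors Ror2, Ptk7 and Ryk and the polarity genes Vangl1, Vangl2, Celsr2, Celsr3, Prickle1, Prickle2, Daam1 and Daam2 lower and Prickle3 higher. Of the Tcf/Lef factors, co-factors and feedback targets 7 of 12 were lower and 0 higher by LRT, with 6 DEGs by QLF, the feedback targets Axin2, Nkd1 and Nkd2 among the lower. Of the transducers and the destruction complex 5 of 12 were lower and 0 higher. Of the R-spondins and their receptors 3 of 5 were lower (Rspo2, Lgr4 and Lgr5) and 0 higher, and of the other antagonists 2 of 9 were lower and 3 higher.

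In EμMyc/Casp2-/- against Th-MYCN/Casp2-/- tumors 27 of the 51 were lower and 10 higher by LRT, and 36 were DEGs by QLF, beside the 27.6% lower and 20.5% higher over all genes. Of the non-canonical genes 10 of 13 were lower and 2 higher (Celsr1 and Prickle3). Of the Tcf/Lef list 6 of 12 were lower and 2 higher (Tcf7 and Lef1), and of the transducers 6 of 12 were lower and 0 higher. Of the R-spondins and their receptors 2 of 5 were lower (Rspo2 and Lgr4) and 1 higher (Rspo1). Of the other antagonists 3 of 9 were lower and 5 higher, Sost and Notum among the higher and Sostdc1 and Apcdd1 among the lower, as they were between the groups with Casp2.

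Between genotypes, 2 of the 51 genes were DEGs by LRT in the neuroblastomas, where 0.813% of all genes were, and 2 in the lymphomas, where 1.44% were, with 0 by QLF in both. In the interaction Tcf7 and Lef1 were DEGs by LRT, and 0 of the 51 were by QLF. Daam2, a formin-related protein of the polarity branch, had 5.81 to 9.70 CPM in Th-MYCN and 13.9 to 18.0 in Th-MYCN/Casp2-/- tumors (log2-fold change 1.13, SE 0.31, LRT FDR 0.0375, QLF FDR 0.224). Lef1, a nuclear partner of β-catenin, had 0.577 to 14.5 CPM in Th-MYCN and 0 to 0.675 in Th-MYCN/Casp2-/- tumors (log2-fold change -4.64, SE 1.11, LRT FDR 0.0319, QLF FDR 0.339), and the groups overlapped. In the lymphomas Vangl2 had 1.18 to 3.93 CPM in EμMyc and 6.06 to 10.0 in EμMyc/Casp2-/- tumors (log2-fold change 1.45, SE 0.42, LRT FDR 0.0408, QLF FDR 0.216). Tcf7, a factor best known in T cells, had 1.58 to 13.9 CPM in EμMyc and 8.78 to 210.2 in EμMyc/Casp2-/- tumors (log2-fold change 3.67, SE 0.82, LRT FDR 0.0045, QLF FDR 0.149), with the 210.2 in EuMycC2ko215, the tumor with the T cell markers, of which 3 of 7 were higher as DEGs in that comparison. The part of T cells in the Tcf7 value was not tested.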

How the data were processed

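The labels placed the 15 tumors, each from its own mouse, in 4 groups (4 EμMyc, 3 EμMyc/Casp2-/- and, of neuroblastomas, 4 with and 4 without Casp2). A further EμMyc/Casp2-/- tumor that the study removed is not analysed here. Per the labels and the study's methods, poly(A) RNA was sequenced, reads were aligned to mm10/GRCm38 with STAR, and the authors deposited unnormalized counts, 3 to a gene (both strands together, first, second). Second-strand counts entered the tests, as in the study. They held 49.6 to 50.2% of the either-strand reads, and the other strand 1.03 to 1.05 times as many, so the libraries behaved as unstranded, the column holds only part of the reads, and a gene cannot be told from an antisense partner. Rows that name no gene (66.4 to 71.8% of the column, most of them reads with no feature on that strand) were left out.

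Analysis was done in R 4.3.3 with edgeR 4.0.16 and DESeq2 1.42.0. The 14880 genes with more than 1 CPM in 3 or more tumors were tested after TMM scaling, with 1 mean per group and a spread shared by the 15 tumors. The main test was the LRT, as likelihood ratios appear in the study's tables, with the QLF FDR beside it. FDRs are over all genes tested, and intervals are the estimate with 1.96 SE on either side. Scripts were tested on simulated data. Exon lengths and gene positions were from GENCODE vM21. Sex and onset were from the study's sample table.

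Members and lists were chosen with earlier results of these data known. Members given tumor by tumor were those with an unadjusted LRT p under 0.05 between genotypes or in the interaction, Wnt5a, Fzd1 and Dkk2, the 8 called members with the smallest FDR in each direction between tumor types, and the 5 with the highest CPM per kb in each tumor type. Dkk3 was outside this rule. Alternatives changed the test, scaling, filter, strand, covariates and tumors, with fits that left out 1 tumor each. The fits of neuroblastomas alone with QLF, DESeq2, sex, either-strand counts or a tumor left out, and of either-strand counts with QLF, were chosen after seeing the data.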

Additional observations from a re-analysis of the deposited data

Results flagged for a closer look

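Among the 15 members given tumor by tumor, the groups of 4 were searched for a tumor far from the others, by Dixon's ratio of gap to range. Of 45 groups 6 held one. The cutoff gives about 1 in 20 by chance for independent, normally distributed values. The 45 groups are genes in the same tumors, some with few reads, so that rate need not hold for them. In Th-MYCN tumors, Fzd5 was 126.3 CPM in MYCN175 against 22.2 to 34.6 in the others, Fzd1 was 1.71 CPM in MYCN175 against 2.54 to 2.71, and Dkk2 was 2.13 CPM in MYCN332 against 0.436 to 0.618. In EμMyc tumors, Sfrp1 was 20.9 CPM in EuMyc743b against 2.55 to 4.90, Fzd3 was 1.14 CPM in EuMyc614 against 0.212 to 0.342, and Wnt5a was 0 CPM in EuMyc835 against 0.342 to 0.394, a difference of a few reads.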

How the results depend on the processing

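For the 15 members that the rule gives tumor by tumor, the log2-fold changes were followed over all alternatives to the model of 15 tumors, 2-group fits included. Of these, 1302 values kept their side of the threshold with no DEG changing sign, 16 newly passed it, and 0 DEGs were lost. Other members, such as Fzd6, Fzd7, Fzd8, Dkk3, Wnt6 and Wnt16, were not part of this count. Between the neuroblastoma genotypes, the number of member DEGs rose from 0 to 3 higher and 1 lower with only those 2 groups fitted, and to 1 lower (Wnt16) with no low count filter. The SEs were smaller with the 2 groups alone, and beyond this the cause was not tested. Within the fit of 8 neuroblastomas, QLF gave 0 higher and 0 lower, sex as a covariate gave 2 higher and 0 lower, and leaving out single tumors gave 2 to 3 higher and 0 to 2 lower. The DEGs over all genes in these fits also varied and are given above. With no filter, the members higher in lymphomas numbered 3 in EμMyc against Th-MYCN (Fzd9, Wnt10b and Wnt2) and 3 in the Casp2-/- tumors (Fzd9, Wnt10b and Wnt4), as more genes were tested. Either-strand counts gave 2 higher in EμMyc against Th-MYCN (Fzd6 and Fzd9). Leaving out single tumors gave 0 to 0 higher and 0 to 1 lower in the neuroblastoma genotypes, 0 in the lymphoma genotypes, 1 to 3 higher and 10 to 11 lower in EμMyc against Th-MYCN, 1 higher and 10 to 13 lower in the Casp2-/- tumors, and 0 to 1 higher and 0 to 2 lower in the interaction. No paired analysis was possible because the tumors are from different mice and nothing in the labels ties a mouse of 1 group to a mouse of another. Of the 19 ligands 15 were under the level tested, and 3 reads corresponded to 0.170 to 0.607 CPM.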
